A study of Homo sapiens with 8 samples.

Results

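Metallothioneins and zinc response genes were examined in Raji and Raji-4RH lymphoma cells treated with the HDAC inhibitor chidamide. The group comprised 7 genes, namely the metallothioneins MT2A, MT1E, MT1F, MT1G and MT1X, the transcription factor MTF1 and the zinc exporter SLC30A1, out of 18143 genes whose values could be placed in a table of 63967 rows. These genes were chosen on the basis of chidamide results from the same libraries, in which MT2A showed the largest rise in Raji-4RH. Their responses to chidamide are therefore given as a description, with no p-value and with counts of calls only beside the share of all genes called.

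Raji is a rituximab-sensitive Burkitt lymphoma line (RSCL), and Raji-4RH is its rituximab-resistant derivative (RRCL), obtained from Raji by repeated exposure to rituximab. No genetic change was introduced in either line by design. Cells of both lines received DMSO, the vehicle, or chidamide at 3 µM for 24 h, and were then collected for RNA-seq, by flow sorting per the labels. The 4 groups were Raji with DMSO, Raji with chidamide, Raji-4RH with DMSO and Raji-4RH with chidamide, each with 2 libraries. The resistant line is a single line set against a single parental line. The labels do not say whether the libraries of a group came from separate cultures, so every p-value measures only the spread between libraries, which may be technical.

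The libraries held between 13991697 and 21193441 reads, with the lowest total in Raji-4RH chidamide replicate 1. Replicates correlated across genes at r between 0.992 and 0.998, lowest for the Raji-4RH chidamide pair. Of 8 B-cell markers, 7 reached 1 FPKM in all libraries, while CR2, which encodes complement receptor CD21, ranged from 0.07 to 0.16 FPKM in Raji-4RH. Summed T-cell markers stayed between 0.0712 and 4.95 FPKM and summed monocyte markers between 0.826 and 8.29 FPKM, against 610 to 1181 FPKM for the B-cell markers. Expression is given as FPKM, fragments per kilobase of exon scaled to the library's read total. A difference is given on the log2(FPKM + 1) scale with the standard error (SE) of the limma fit, which covered 10710 genes.

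Metallothioneins are small, cysteine-rich proteins that bind zinc, copper and cadmium and buffer the free metal in the cell. When zinc rises, the zinc finger factor MTF1 binds metal response elements in the promoters of metallothionein genes and of SLC30A1, which encodes ZnT1, the exporter that carries zinc across the plasma membrane. Their transcripts are also known to respond to glucocorticoids and oxidative stress, and the genes lie in a cluster on chromosome 16 with many near-identical copies.

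In GRCh38 (GENCODE release 29), the 5 metallothionein genes lay within 76 kb on chromosome 16. MT2A was at chr16:56608199-56609497, MT1E at chr16:56625475-56627112, MT1F at chr16:56657694-56660698 and MT1X at chr16:56682424-56684196, all on the plus strand, whereas MT1G at chr16:56666731-56668065 was on the minus strand. On chromosome 1, MTF1 was at chr1:37809567-37859620 and SLC30A1 at chr1:211571568-211578742, both on the minus strand. All 7 are protein-coding genes, and the length behind each FPKM value equalled that of the gene's exons.

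Promoter sequences are shown because they carry the sites through which MTF1 is known to act. Metal response element cores were searched as TGCACNC or TGCGCNC on both strands, in a window from 250 bases before to 50 bases after the RefSeq start (GRCh38.p14). RefSeq promoters were matched for 4 of the 7 genes, MT2A, MT1X, SLC30A1 and MTF1, and were missing for MT1E, MT1F and MT1G. The 250 bases before the start follow for the 3 promoters with a core, read 5′ to 3′ on the gene's strand, with each core in capitals. They come from chr16:56608334-56608583 (plus strand), chr16:56682220-56682469 (plus strand) and chr1:211579162-211579411 (minus strand), in this order.
MT2A: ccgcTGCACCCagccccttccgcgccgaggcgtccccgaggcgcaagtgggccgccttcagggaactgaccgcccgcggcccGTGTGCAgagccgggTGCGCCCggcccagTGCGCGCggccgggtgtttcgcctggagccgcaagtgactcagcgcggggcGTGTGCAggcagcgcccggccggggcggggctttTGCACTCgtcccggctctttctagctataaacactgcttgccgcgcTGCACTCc
MT1X: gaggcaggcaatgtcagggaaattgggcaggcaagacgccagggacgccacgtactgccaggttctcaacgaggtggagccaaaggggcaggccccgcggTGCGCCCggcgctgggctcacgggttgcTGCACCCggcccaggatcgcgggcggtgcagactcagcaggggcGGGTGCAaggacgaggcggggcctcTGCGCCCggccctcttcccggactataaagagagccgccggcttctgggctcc
SLC30A1: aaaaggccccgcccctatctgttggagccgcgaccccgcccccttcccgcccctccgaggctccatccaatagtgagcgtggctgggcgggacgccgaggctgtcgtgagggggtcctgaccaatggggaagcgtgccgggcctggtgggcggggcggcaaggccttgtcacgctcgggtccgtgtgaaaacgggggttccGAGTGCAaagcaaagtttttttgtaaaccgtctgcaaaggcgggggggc

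MT2A held 8 cores in the whole window, 5 on the plus and 3 on the minus strand, of which 7 lay before the start. Of 35116 RefSeq promoters, 0.0199% held at least 8 cores. MT1X had 4 cores, all before the start, a number reached by 0.601% of promoters. In SLC30A1, 1 core stood before and 1 after the start, and 8.60% of promoters had at least 2. No core was found in the MTF1 window, whereas 29.6% of promoters had at least 1. No cores of a promoter overlapped one another. A match to these letters describes the sequence and is not evidence of binding.

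**Figure D1:**
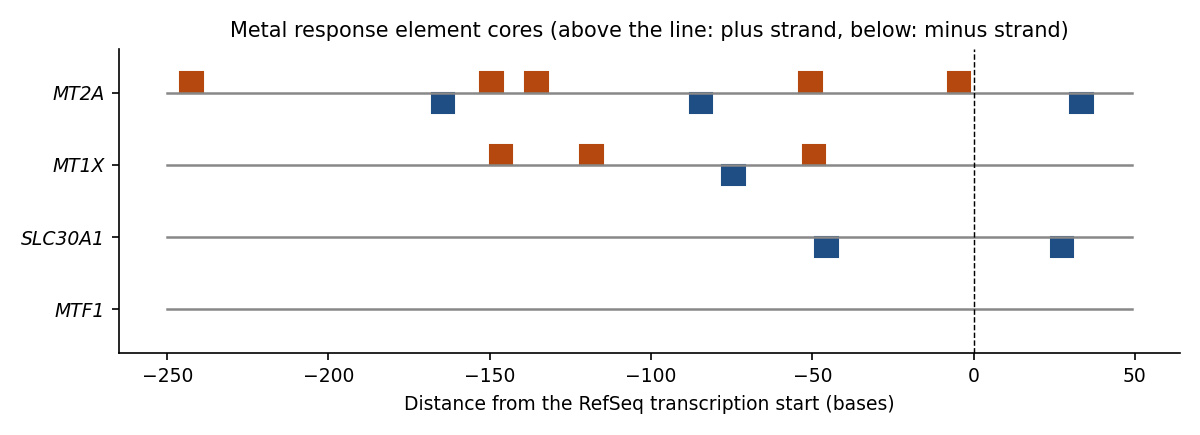
Positions of metal response element cores in 4 promoters, with distance from the RefSeq start in bases on the x axis. Boxes above a line are cores on the gene's plus strand and boxes below it cores on the other strand. MT2A carries 8 cores, MT1X 4, SLC30A1 2 and MTF1 0.

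MT2A, the metallothionein with the highest FPKM in every group but Raji-4RH DMSO, was present in Raji, nearly silent in Raji-4RH, and high in both lines under chidamide. Its level in Raji was 36.8 and 38.9 FPKM with DMSO and 98.4 and 101.5 FPKM with chidamide. In Raji-4RH, it was 1.27 and 1.31 FPKM with DMSO, from 31 and 36 reads, and 79.7 and 61.9 FPKM with chidamide. From the highest mean to the lowest, the order was Raji chidamide, Raji-4RH chidamide, Raji DMSO and Raji-4RH DMSO. The mean with chidamide was 54.9 times the DMSO mean in Raji-4RH and 2.64 times in Raji. On the log2 scale, the difference was 4.96 (SE 0.10) in Raji-4RH, rank 1 of the 10710 genes, and 1.38 (SE 0.10) in Raji, rank 231.

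MT1X, a second metallothionein with the same metal-binding role, rose from a similarly low level in Raji-4RH but stayed near its starting level in Raji. The Raji libraries had 10.0 and 12.3 FPKM with DMSO and 12.8 and 12.5 FPKM with chidamide. In Raji-4RH, the values were 1.44 and 1.52 FPKM with DMSO, from 48 and 57 reads, and 20.1 and 11.8 FPKM with chidamide. The chidamide libraries of Raji-4RH thus lay on either side of those of Raji, and replicate 2 fell within the range of Raji DMSO. The ratio of means was 10.8 in Raji-4RH and 1.14 in Raji. The log2 difference was 2.73 (SE 0.20) in Raji-4RH, and 0.18 (SE 0.20) in Raji. Replicate 1 of Raji-4RH chidamide, the higher library for both metallothioneins, was also the one with the fewest reads, and the part of depth in this spread was not tested.

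The balance between the metallothioneins differed between lines and treatments. The ratio of MT2A to MT1X FPKM in Raji was 3.68 and 3.17 with DMSO and 7.68 and 8.10 with chidamide. In Raji-4RH, it was 0.881 and 0.862 with DMSO, and 3.96 and 5.24 with chidamide. MT1X thus exceeded MT2A in Raji-4RH DMSO alone of the 4 groups.

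The other 3 metallothioneins of the group were at or near 0. MT1E had 3 and 2 reads in the Raji DMSO libraries and 0 in the other 6 libraries. MT1F had 2 reads in Raji DMSO replicate 2, 1 read in Raji-4RH chidamide replicate 1 and 0 elsewhere. MT1G had 2 reads in Raji-4RH chidamide replicate 1 and 0 elsewhere. A count of 0 allows up to 3 reads, which is 0.135 to 0.204 FPKM for MT1E, 0.0749 to 0.0862 FPKM for MT1F and 0.189 to 0.217 FPKM for MT1G in the libraries at 0, for counting error only. These 3 genes were below the filter of 1 FPKM in 2 libraries and were not tested. A rise in FPKM of the size seen in MT2A was not seen for MT1E, MT1F or MT1G. With 0 reads in Raji-4RH DMSO, a fold change of these genes in that line could not be assessed. Of 11 further metallothionein genes listed, 3 could be placed, MT3, MT4 and MT1B, and all 3 were below the same filter. The other 8 were not analysed here.

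The metallothioneins share sequence, which limits how exactly reads can be assigned. The longest identical run between transcripts was 63 bases for MT1X and MT2A, 96 for MT1G and MT1X, 85 for MT1E and MT1G, and 70 for MT1G and MT2A. How reads that match several genes were counted is not given in the sources used here, so the low values of MT1E, MT1F and MT1G are uncertain in this respect. In bulk RNA, fewer expressing cells and less RNA per cell cannot be told apart.

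**Figure D2:**
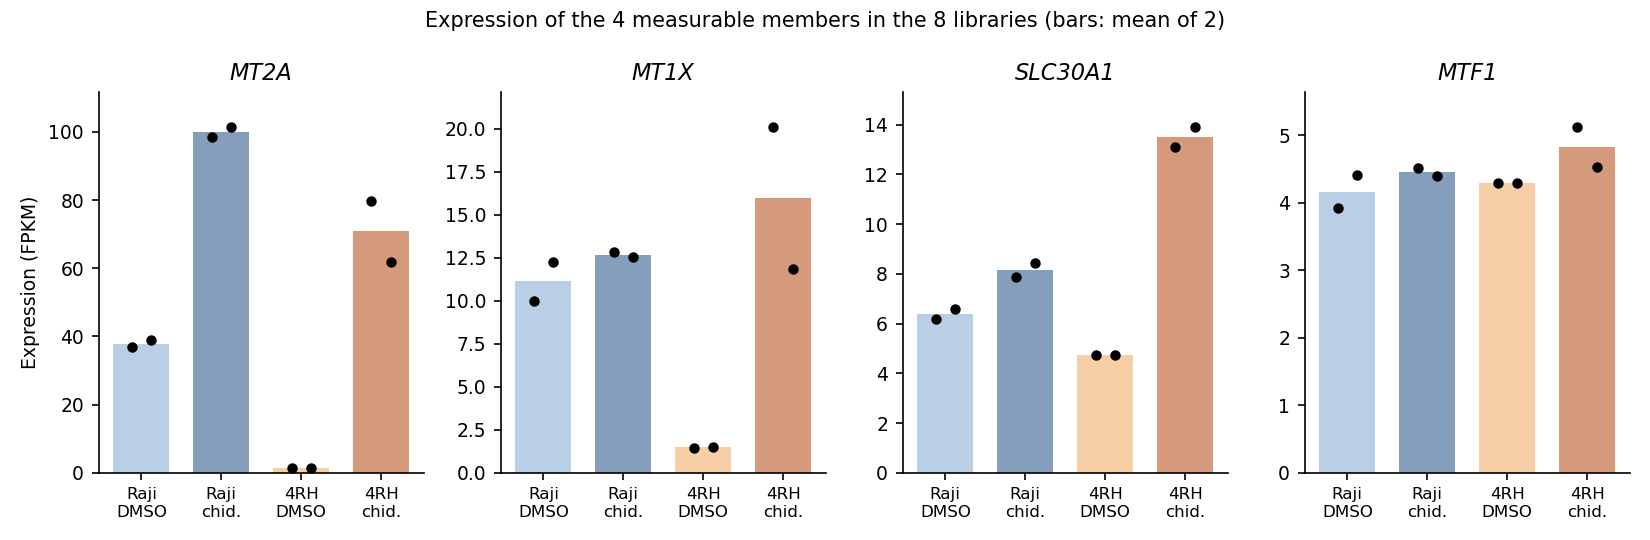
FPKM of MT2A, MT1X, SLC30A1 and MTF1 in the 8 libraries, with a separate linear axis from 0 for each gene. Points are libraries, bars are means of 2 and 4RH stands for Raji-4RH. MT2A and MT1X are below 2 FPKM only in Raji-4RH DMSO, whereas MTF1 stays between 3.93 and 5.13 FPKM.

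SLC30A1, which exports zinc from the cytosol, was likewise lower in Raji-4RH with DMSO and higher with chidamide, over a smaller range. Raji libraries had 6.19 and 6.60 FPKM with DMSO and 7.87 and 8.43 FPKM with chidamide. Raji-4RH libraries had 4.74 and 4.75 FPKM with DMSO and 13.1 and 13.9 FPKM with chidamide. Raji-4RH held both the lowest and the highest values. The log2 difference was 1.34 (SE 0.06) in Raji-4RH and 0.31 (SE 0.06) in Raji.

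MTF1, the zinc-sensing activator of the genes above, varied little. Its Raji values were 3.93 and 4.41 FPKM with DMSO and 4.52 and 4.40 FPKM with chidamide. In Raji-4RH, it was 4.29 FPKM in each DMSO library, and 5.13 and 4.53 FPKM with chidamide. The log2 difference was 0.14 (SE 0.07) in Raji-4RH and 0.08 (SE 0.07) in Raji. The sign of these small differences turned to -0.06 and -0.03 under quantile normalization, which lowered the median over all genes in Raji-4RH from 0.09 to -0.02.

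Of the 7 genes, 4 were tested. In Raji-4RH, 3 of these 4 were called higher with chidamide at an adjusted p under 0.05, where 74.9% of all tested genes were called in either direction. With a log2 difference of at least 1 in addition, the count was again 3, where 15.1% of all genes passed. In Raji, MT2A and SLC30A1 were called, where 60.0% of all genes were called, and MT2A passed the stricter limit, where 5.23% of all genes did. The median over the 4 genes was 2.03 in Raji-4RH and 0.24 in Raji, and over all tested genes 0.09 and 0.02. Since the genes were chosen from this response, these counts only restate the choice and nothing is read from them.

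The chidamide effect was larger in Raji-4RH than in Raji for MT2A by 3.58 (SE 0.14), for MT1X by 2.55 (SE 0.28) and for SLC30A1 by 1.03 (SE 0.09), and for MTF1 the difference of effects was 0.06 (SE 0.10). MT2A was at rank 2 and MT1X at rank 14 of the 10710 genes. All 3 of the former were called at both limits, where 48.8% of all genes passed the adjusted p and 6.31% also had a difference of at least 1. This difference rests on the same response from which the genes were chosen, so nothing is read from these calls either. The mean MT2A level of Raji-4RH was 3.41% of that of Raji with DMSO and 70.8% with chidamide. For MT1X, these shares were 13.3% and 126%, and for SLC30A1 74.2% and 166%. The levels of the lines under chidamide were set side by side here and their difference was not tested.

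**Figure D3:**
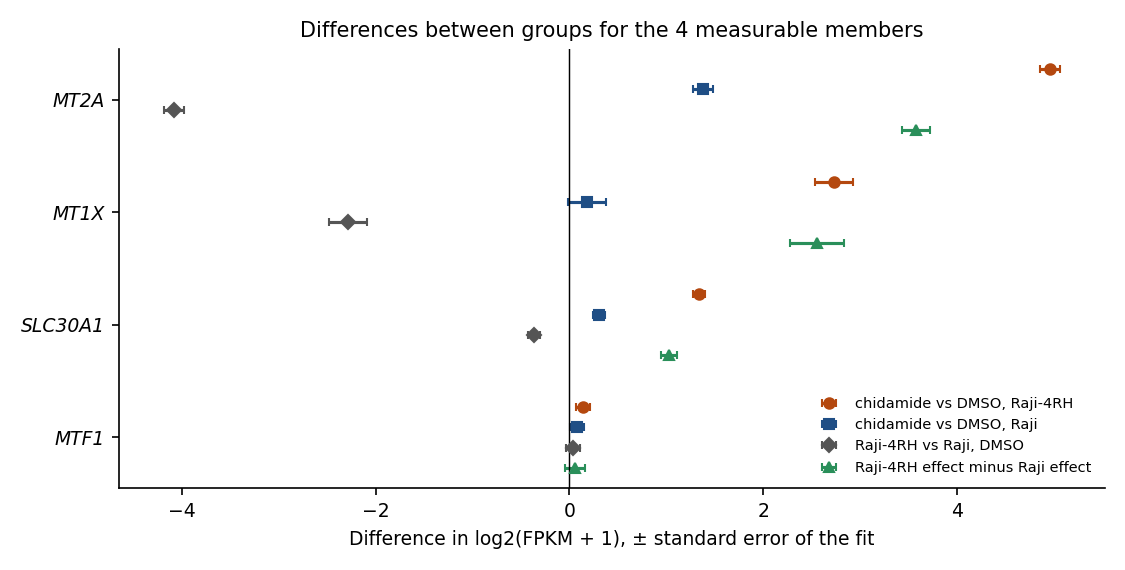
Differences in log2(FPKM + 1) for MT2A, MT1X, SLC30A1 and MTF1, with bars for the SE of the limma fit. Circles and squares are chidamide against DMSO in Raji-4RH and Raji, diamonds Raji-4RH against Raji with DMSO, and triangles the Raji-4RH effect minus the Raji effect. MT2A runs from -4.08 between the untreated lines to 4.96 with chidamide in Raji-4RH, while MTF1 stays near 0.

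Whether the resistant line differed from its parent without chidamide was tested with the DMSO libraries. Both measurable metallothioneins were lower in Raji-4RH. MT2A was 29.3-fold lower by means, with a log2 difference of -4.08 (95% confidence interval -4.32 to -3.85, limma adjusted p = 8.2e-09), rank 12 from the lowest of 10710. MT1X was 7.52-fold lower, with a log2 difference of -2.28 (-2.74 to -1.83, limma adjusted p = 1.2e-05), rank 107 from the lowest. SLC30A1 was lower by a smaller margin, at -0.36 (-0.50 to -0.22, limma adjusted p = 0.00069). MTF1 was 0.04 (-0.13 to 0.20, limma adjusted p = 0.67), its groups overlapped, and the sign turned under quantile normalization and median-centring. Thus 3 of 4 were called, where 73.6% of all genes were, and 2 of 4 also differed by at least 1, where 15.9% of all genes did. The Raji-4RH DMSO libraries enter this comparison as well as the chidamide comparison, so a low value there lowers the former and raises the latter, and these p-values are not independent of how the genes were chosen.

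The genes around the metallothionein cluster did not share the size of this difference. Within 500 kb of the cluster, 15 other genes were placed and 9 were tested. With DMSO, 6 of the 9 were called lower and 1 higher in Raji-4RH, with a median of -0.29. Over all tested genes, 73.6% were called, 3470 lower and 4412 higher, with a median of 0.06. Most neighbours thus lay in the direction of the metallothioneins, and a difference of the region as a whole was not tested. The lowest was NLRC5, the transactivator of MHC class I genes, at -1.36, and the highest BBS2, a subunit of the ciliary BBSome, at 0.32. With chidamide in Raji-4RH, 4 were called higher and 3 lower, with a median of 0.05 and a range from -1.08 (NUDT21, an RNA cleavage factor subunit) to 1.11 (CETP, the cholesteryl ester transfer protein). Over all genes, 74.9% were called in this comparison and the median was 0.09. No tested neighbour reached the value of MT2A or MT1X in either comparison. With chidamide in Raji-4RH, MT2A had rank 1 and MT1X rank 35 of the 10710 genes. Since the metallothioneins were chosen from that response, nothing is read from this for the chidamide comparison. BBS2, NUDT21, CETP and NLRC5 were named after their values were seen. NUDT21 and BBS2 each overlap OGFOD1, and how strand was handled is not given, so reads in the shared stretches are uncertain.

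**Figure D4:**
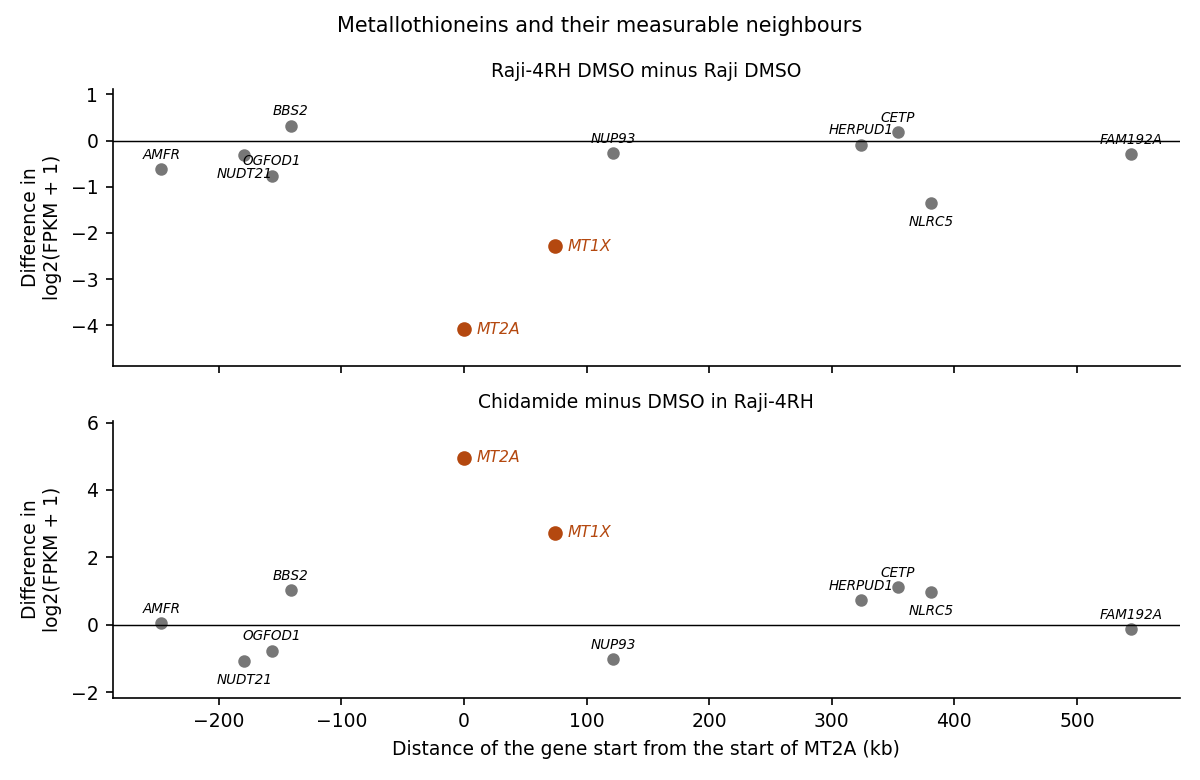
Differences in log2(FPKM + 1) for MT2A and MT1X (orange) and the 9 tested neighbours (grey), by distance of the gene start from that of MT2A in kb. The upper panel shows Raji-4RH against Raji with DMSO and the lower panel chidamide against DMSO in Raji-4RH. Neighbours range from -1.36 to 0.32 above and from -1.08 to 1.11 below.

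Genes that followed MT2A across the 8 libraries were looked for among the 6611 tested genes that averaged 5 FPKM or more. The closest were DLG4 (r = 0.997), ZNF860 (r = 0.996), ABRACL (r = 0.995), NIPSNAP1 (r = 0.993) and ST6GALNAC6 (r = 0.993). DLG4, the synaptic scaffold PSD-95, had a mean FPKM of 5.55 without and 8.89 with chidamide in Raji, and of 0.947 without and 7.02 with it in Raji-4RH. ZNF860, a zinc finger protein, had 8.35, 14.3, 1.96 and 11.2 FPKM in the same order. For SLC30A1, the closest were RAB11FIP1, EDEM3, CTNNB1, GOLPH3L and GMPPA, with r from 0.990 to 0.995. CTNNB1, which encodes beta-catenin, had 25.1, 30.1, 22.6 and 38.7 FPKM. These correlations are over 8 libraries in 4 groups of 2, which share line, treatment and depth, and are descriptive.

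Other genes of metal and stress handling moved in both directions. Of 56 tested genes in these lists, 26 rose and 22 fell with chidamide in Raji-4RH, and 20 rose and 20 fell in Raji. Over all tested genes, 74.9% were called in Raji-4RH (4642 higher and 3380 lower) and 60.0% in Raji (3370 higher and 3051 lower). The counts of each list below stand beside these shares. The median of the 56 genes was 0.10 in Raji-4RH and 0.04 in Raji, beside 0.09 and 0.02 over all genes.

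Among the other zinc exporters, 3 of 5 tested genes rose and 2 fell in Raji-4RH. SLC30A4, a transporter into endosomal vesicles, rose from 0.355 ± 0.035 to 1.44 ± 0.16 FPKM (SD, n = 2), by 0.85 on the log2 scale (limma adjusted p = 6.2e-06). Under quantile normalization, this difference was 0.16 (limma adjusted p = 0.065) and no longer passed, and with voom on recovered reads it was 2.02. Its mean in Raji was 2.20 FPKM without and 2.30 FPKM with chidamide, and it was lower in Raji-4RH than in Raji with DMSO by -1.24 (limma adjusted p = 6.1e-07). SLC30A9 rose by 0.71 and SLC30A7, a Golgi transporter, by 0.34 (limma adjusted p = 5.0e-06 and 0.00079), the latter by 0.17 under quantile normalization. In Raji, SLC30A9 rose by 0.40 (limma adjusted p = 0.00030), while SLC30A4 and SLC30A7 were at 0.04 and 0.09 and did not pass.

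The zinc importers of the SLC39 family showed no common direction, with 4 higher, 4 lower and 3 not called in Raji-4RH, and 5 higher and 3 lower in Raji. SLC39A13 and SLC39A11 rose in Raji-4RH by 0.77 and 0.63 (limma adjusted p = 0.0010 and 5.9e-05). SLC39A3 fell from 9.82 ± 0.71 to 5.95 ± 1.17 FPKM (SD, n = 2) in Raji-4RH (limma adjusted p = 0.00053), whereas its difference in Raji was 0.04 (limma adjusted p = 0.76).

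Copper handling genes, whose metal is also bound by metallothioneins, had 5 higher and 4 lower of 11 in each line. CCS, the copper chaperone of superoxide dismutase, rose from 6.26 ± 0.05 to 16.4 ± 1.1 FPKM (SD, n = 2) in Raji-4RH and from 7.25 ± 0.35 to 11.9 ± 0.5 FPKM in Raji. ATP7A, a copper-exporting pump, rose in Raji-4RH by 0.57 (limma adjusted p = 0.00019), and in Raji by 0.23 (limma adjusted p = 0.035), but the former call was lost under quantile normalization, at 0.14 (limma adjusted p = 0.15), and the latter in 9 alternative fits. SCO2, a mitochondrial copper chaperone, fell in both lines, with differences of -0.79 in Raji-4RH and -0.51 in Raji (limma adjusted p = 9.4e-06 and 0.00026).

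Oxidative stress genes were also mixed, with 6 higher and 4 lower of 13 in Raji-4RH and 4 higher and 5 lower in Raji. The list holds NRF2 targets together with NFE2L2, which encodes NRF2 itself, and KEAP1. Both NFE2L2 (-0.50) and KEAP1 were among the 4 lower in Raji-4RH. HMOX1, the haem-degrading oxygenase, was the exception in size. It rose in Raji-4RH from 0.517 ± 0.073 to 9.27 ± 0.80 FPKM (SD, n = 2), by 2.76 (limma adjusted p = 3.6e-08), or by 4.14 with voom on recovered reads. In Raji, it stayed below 1 FPKM in each library and differed by 0.13 (limma adjusted p = 0.135). GCLC, of glutathione synthesis, rose by 0.74 in Raji-4RH and 0.58 in Raji, and KEAP1, the inhibitor of NRF2, fell, with differences of -0.99 and -0.68. The differences of GCLC and KEAP1 had a limma adjusted p under 0.05 in both lines. Genes were named only if they had passed, so this restates the choice in part.

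Of 11 heat shock genes listed, 9 were placed and tested, and the inducible HSPA1A and HSPA1B were not. The 9 mostly fell, with 7 lower and 2 higher in Raji-4RH (median -1.13), and 6 lower and 1 higher in Raji (median -0.41). BAG3 was higher in both lines, by 0.72 in Raji-4RH and 1.28 in Raji (limma adjusted p = 0.00032 and 2.3e-05). The chaperones HSPH1 and HSP90AA1 fell, with differences of -1.73 and -1.41 in Raji-4RH (limma adjusted p = 5.7e-08 and 4.5e-07), whereas in Raji the differences were -1.01 and -0.98. HSPB1, a small heat shock protein, went the other way in Raji-4RH, from 52.0 ± 4.3 to 155 ± 25 FPKM (SD, n = 2, limma adjusted p = 2.9e-06). In Raji, HSPB1 was at 0.215 and 0.340 FPKM on average, and this gene was higher in untreated Raji-4RH than in untreated Raji by 5.45 on the log2 scale (limma adjusted p = 2.3e-09).

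In the glucocorticoid list, 6 of 7 tested genes were higher and 1 lower in Raji-4RH, where 74.9% of all genes were called. In Raji, 4 were higher and 1 lower, where 60.0% of all genes were called. The 1 lower in Raji-4RH was FKBP5, at -0.21 (limma adjusted p = 0.0076), which was higher in Raji by 0.20 (limma adjusted p = 0.014). The list includes the receptor gene NR3C1, which was higher in Raji-4RH (0.57) and was the 1 lower in Raji (-0.37). TSC22D3, which encodes the glucocorticoid-induced leucine zipper, rose by 2.10 in Raji-4RH and 1.61 in Raji (limma adjusted p = 4.1e-08 and 3.7e-07). SGK1, a kinase of ion transport, rose by 1.92 in Raji-4RH and by 3.54 in Raji, from 2.13 to 35.3 FPKM (limma adjusted p = 9.8e-08 and 1.9e-08). It started from 0.350 FPKM in Raji-4RH, where the difference was 3.55 with voom on recovered reads. DUSP1, a MAP kinase phosphatase, rose in Raji-4RH by 0.91 (limma adjusted p = 0.00097) and was at -0.27 in Raji (limma adjusted p = 0.18).

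**Figure D5:**
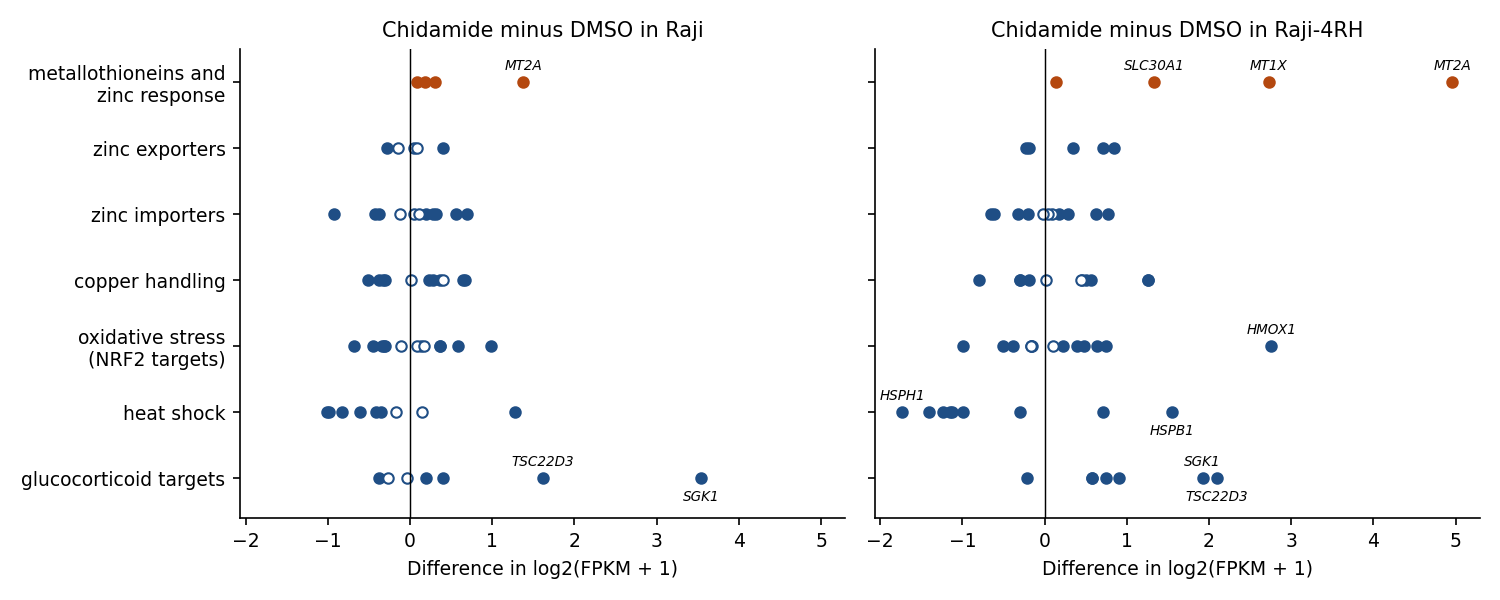
Differences in log2(FPKM + 1) with chidamide in Raji (left) and Raji-4RH (right), 1 point per tested gene. Filled blue points passed an adjusted p under 0.05 and open points did not, and orange points are the metallothionein and zinc response genes, shown without marking calls. MT2A lies farthest to the right in Raji-4RH at 4.96, while most heat shock genes lie left of 0.

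Marker genes of other cell types moved with chidamide at low levels. T-cell markers, 4 of 5 of which stayed under 1 FPKM in all libraries, summed to 0.0712 to 0.0782 FPKM in untreated Raji, 0.815 to 1.05 in treated Raji, 0.720 to 0.943 in untreated Raji-4RH and 3.98 to 4.95 in treated Raji-4RH. CD3E was the highest of them in treated Raji-4RH, at 2.94 to 4.10 FPKM. CD8A was at most 0.07 FPKM in any library. The 4 placed of 5 monocyte markers summed to 0.965 to 0.981, 5.75 to 6.14, 0.826 to 0.897 and 7.92 to 8.29 FPKM in the same order, with S100A8 at 0 in 7 of 8 libraries. CSF1R was at 4.63 to 5.06 FPKM in treated Raji, and LYZ at 4.06 to 4.13 FPKM in treated Raji-4RH. In this order, summed epithelial markers were at 0.615 to 0.684, 0.0149 to 0.129, 0.0252 to 0.0293 and 0.317 to 0.522 FPKM. Endothelial and fibroblast markers summed to 0.160 to 0.337, 2.43 to 2.61, 0.191 to 0.210 and 0.531 to 0.739 FPKM. The part of such signal in the metallothionein values was not tested. B-cell markers summed to 1142 to 1181, 1117 to 1130, 758 to 797 and 610 to 641 FPKM, again in this order.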

How the data were processed

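RNA-seq was analysed in 8 libraries, 2 for each of the 4 groups. The deposited table gives FPKM per gene, which the authors computed from read counts per gene, and a gene length in bases (a value of no sample). The submitters' processing notes name HISAT2 2.0.5, SAMtools 1.7, HTSeq 0.9.1, DESeq2 1.22.2 and the builds hg38 and GRCh38. How multi-mapped reads and strand were handled is not given in the sources used here.

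In the deposited table, values past the early rows stand up to 14 rows below their gene labels, and the last 662 rows repeat the reads of others. FPKM multiplied by length and by the library total came out whole in 100% of values (tolerance 0.01), so the value row's length is the one used and whole reads could be recovered. Labels were placed by stretches of constant shift. MT2A and MT1G stand in their own rows, the shift was 4 to 14 rows for the other 5 genes, and the file length equalled the GENCODE exon length for all 7. Of 49 ribosomal protein genes past the first shift, 45 had at least 100 FPKM in all libraries when placed and 0 in the label's row. The 18143 placed labels hold 90.7% to 93.2% of reads. The other 45824 labels were not analysed here.

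Differences were fitted with limma 3.58.1 (R 4.3.3; lmFit, eBayes with trend) on log2(FPKM + 1) over 10710 genes that reached 1 FPKM in 2 or more libraries, with 4 group means and contrasts of them. A fold on this scale understates changes of low genes. Calls use a Benjamini-Hochberg adjusted p under 0.05. With 2 libraries against 2, a permutation of single genes cannot pass this limit. The pipeline was also run on simulated data in which few genes changed. That run does not cover data where as many genes are called as here. Alternatives were quantile normalization, median-centring, a pseudocount of 0.1, no filter or a filter on the mean, no trend, voom on recovered reads, only the libraries compared, a replicate block, leaving out each library, and rows as deposited. The members and gene lists were chosen with earlier results of these data known. All 7 members are named, and from each other list at most 3 genes averaging 1 FPKM or more and having the largest absolute difference in Raji-4RH among those that passed, plus the 5 genes most correlated with MT2A and with SLC30A1. BAG3, FKBP5, HSPA1A, HSPA1B, NFE2L2 and NR3C1 are named outside this rule, to describe their lists. Limits for a count of 0 cover counting error only, and limma's confidence intervals rest on the spread between libraries. Sequences are from RefSeq.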

Additional observations from a re-analysis of the deposited data

Results flagged for a closer look

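Among the listed genes outside the metallothionein group, 33 of 56 tested had a chidamide effect that differed between Raji-4RH and Raji in the limma test of the difference itself (adjusted p under 0.05), where 48.8% of all tested genes did. Of these 33, the 15 that are among the 18 genes named for their large differences in Raji-4RH are given here, as the Raji-4RH effect minus the Raji effect on the log2 scale. The Raji-4RH effect by which they were named is part of the difference tested. The choice thus favours a call, and the p-values of these 15 are not independent of it. The effect was higher in Raji-4RH for HMOX1 by 2.62 (adjusted p = 2.4e-06), for HSPB1 by 1.41 (0.00017), for DUSP1 by 1.18 (0.0036), for SLC30A4 by 0.81 (0.00026), for CCS by 0.61 (0.00097) and for TSC22D3 by 0.49 (0.0018). Smaller differences of this direction were 0.35 for ATP7A, 0.31 for SLC30A9 and 0.26 for SLC30A7. The effect was lower in Raji-4RH for SGK1 at -1.61 (adjusted p = 1.1e-05), HSPH1 at -0.72 (0.00013), SLC39A3 at -0.69 (0.0057), HSP90AA1 at -0.43 (0.0072), KEAP1 at -0.31 (0.0068) and SCO2 at -0.29 (0.035). The calls were lost in 9 alternative fits for SLC30A7, 8 for ATP7A, 6 for SCO2 and 1 for SLC30A9 (without Raji chidamide replicate 2), and SGK1 was at -0.50 with voom on recovered reads. HMOX1 and HSPB1 are near 0 in Raji. With voom on recovered reads, the difference was 2.08 for HMOX1 (adjusted p = 0.051) and 0.93 for HSPB1 (adjusted p = 0.41), and neither passed.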

How the results depend on the processing

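The counts of called genes stayed within 1.5 times their value in every alternative run, for all genes, for the metallothionein and zinc response genes and for the other lists. Leaving out 1 library at a time gave 7168 to 8087 calls over all genes with chidamide in Raji-4RH, 5128 to 7115 in Raji, 6960 to 8438 between the untreated lines and 4044 to 6042 for the difference of effects. The replicate block, with the number within each line as the block, gave 8031, 6317, 7831 and 5102 calls, and 3, 2, 3 and 3 of the 4 tested members. Deviations of same-numbered libraries correlated at -0.09 in Raji and 0.17 in Raji-4RH, and the labels give same-numbered libraries no shared source. Under quantile normalization, the calls in Raji-4RH with chidamide split into 3718 higher and 4057 lower, against 4642 and 3380 without it.

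The difference of MT2A ran from 4.78 to 5.74 with chidamide in Raji-4RH and from -4.85 to -3.88 between the untreated lines over all alternatives with placed rows (adjusted p from 3.2e-10 to 1.6e-06), and that of MT1X from 2.37 to 3.32 and from -2.89 to -2.15 (adjusted p from 8.7e-08 to 0.00035). SLC30A1 ran from 1.26 to 1.51 and from -0.43 to -0.32 (adjusted p from 0.00025 to 0.0071). These p-values between the untreated lines are not independent of how the genes were chosen, since the Raji-4RH DMSO libraries also enter the chidamide comparison. Leaving out Raji-4RH chidamide replicate 1 gave 2.37 for MT1X and leaving out replicate 2 gave 3.09. MTF1 was 0.06 and 0.21 in Raji-4RH without the same libraries. Without the filter, MT1E was called lower with chidamide in Raji and in untreated Raji-4RH, from 5 reads in Raji DMSO and 0 elsewhere.

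Some differences changed sign. Under quantile normalization, in Raji with chidamide SLC30A4 was -0.18, SLC30A7 -0.11, ATP7A -0.11 and HSPB1 -0.14, and between the untreated lines MTF1 was -0.0571 and DUSP1 -0.0645. MTF1 was -0.00841 with median-centring. Leaving out 1 library gave -0.0319 (without Raji DMSO replicate 1) to 0.104 for MTF1 and -0.0838 (without Raji-4RH DMSO replicate 2) to 0.225 for DUSP1 between the untreated lines, and for the difference of effects -0.0342 (without Raji-4RH chidamide replicate 2) to 0.442 for SLC39A13 and -0.148 to 0.0189 (without the same library) for SLC39A11. Rows as deposited, which give the label the values of another row, gave CCS -0.31 in Raji-4RH and -0.43 in Raji, ATP7A -0.34, -0.0577 and, for the difference of effects, -0.29, TSC22D3 -0.23 in Raji, and between the untreated lines SLC39A3 0.29, SLC39A11 0.24 and SCO2 2.19. For these rows the construction itself shows the cause, and for the others the cause was not tested.

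Each group has 2 libraries, MT2A and MT1X rest on 31 to 57 reads per library in Raji-4RH DMSO, and 3 of the 7 genes were too low to test. The values of 5 of the 7 genes depend on the placement of labels.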
